A study of Mus musculus with 6 samples.

Results

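Heat shock proteins and the J-domain cochaperones were followed in lung RNA of mice with a wildtype or a dimerization-impaired glucocorticoid receptor (GR). Members were taken by gene symbol alone. They are the protein-coding genes whose symbol begins with Hspa, Hspb, Hspd, Hspe, Hsph, Hsp90, or with Dnaja, Dnajb or Dnajc and a digit, together with *Cryab*, *Bag3*, *Hsf1*, *Hsf2*, *Stip1* and *Chordc1*. This gave 80 of the 54532 genes with read counts, and 71 of the 80 had enough reads to be tested. Total RNA of 6 lungs had been sequenced after poly(A) capture, 1 library per mouse, 3 from GR+/+ and 3 from GRdim/dim mice. All 6 mice, on the mixed background 129/SvEv x C57BL/6, had been bled into hemorrhagic shock (HS), held at 35 mmHg mean arterial pressure during 1 h, and then resuscitated over 4 h with re-transfusion, fluids and norepinephrine. Mice of the cohort were 10 to 16 weeks old, were ventilated under anesthesia, and had their body temperature held by a closed-loop system. GRdim/dim mice carry the GR mutation in every cell of the body, and the GR+/+ mice were littermates. The sequenced mice were 2 female and 1 male for GR+/+ and 1 female and 2 male for GRdim/dim. No lung without HS was analysed here, so the values compare genotypes after HS and do not measure a response to HS. Mice were operated on separate days, so mouse and day cannot be told apart.

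Heat shock proteins are molecular chaperones that bind unfolded proteins and keep them from aggregating. HSP70 proteins bind and release their clients in a cycle driven by ATP, J-domain proteins deliver the clients and trigger the hydrolysis, and nucleotide exchange factors restart the cycle. HSP90 takes over late folding steps and, with HSP70 and STIP1, holds the unliganded GR in the state that can bind hormone. Small heat shock proteins bind clients without ATP, and the transcription factor HSF1 raises many of these genes when unfolded proteins build up.

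HSF1 acts on heat shock elements, repeats of the unit GAA in alternating orientation. RefSeq promoters of the build GRCm38.p6, each from 250 bases before to 50 bases after a transcript start, were found for 64 of the 80 members, 81 windows in all. *Cryab*, *Hspa8*, *Hsp90aa1* and *Hsp90ab1* are among the 16 members without a window. The windows were searched for 3 units in a row, GAA, TTC and GAA with 2 free bases after each of the first units, and on the other strand for TTC, GAA and TTC with the same gaps. Both forms overlap each other in longer runs of units. This element was present in 7 member windows of 5 genes, *Chordc1*, *Dnajb6*, *Hspd1*, *Hspe1* and *Hsph1*, and in 198 of all 32851 promoters of the same length (0.603%). The windows of *Hspd1* and *Hspe1* cover the same stretch from opposite strands, and *Dnajb6* and *Hsph1* have overlapping windows, so the 7 windows are not independent. These letters were not found in the windows of *Hspa1a*, *Hspa1b* and *Hspb1*. Only exact units at these gaps were searched, so a window without a match can still hold a looser form of the element. The palindromic glucocorticoid response element, GNACA and TGTNC with 3 free bases between them, reads the same on either strand. It was in 156 of the 32851 promoters (0.475%) and in 0 of the 81 member windows. At so low a share, 0 in 81 windows says little about these genes, and sites farther from the start were not searched. Promoters of 4 members described below are printed 5′ to 3′, with the heat shock element in capitals. The first 3 hold the element, and the window of *Hspb8* holds no exact match.
Chordc1, chr9:18292017-18292316, plus strand: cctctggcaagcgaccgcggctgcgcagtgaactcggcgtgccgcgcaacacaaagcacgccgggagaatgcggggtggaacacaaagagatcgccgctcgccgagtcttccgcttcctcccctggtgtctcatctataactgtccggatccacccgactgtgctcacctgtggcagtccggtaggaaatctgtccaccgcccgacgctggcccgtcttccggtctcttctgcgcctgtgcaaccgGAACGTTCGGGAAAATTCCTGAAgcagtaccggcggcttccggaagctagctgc
Hsph1, chr5:149636266-149636565, minus strand: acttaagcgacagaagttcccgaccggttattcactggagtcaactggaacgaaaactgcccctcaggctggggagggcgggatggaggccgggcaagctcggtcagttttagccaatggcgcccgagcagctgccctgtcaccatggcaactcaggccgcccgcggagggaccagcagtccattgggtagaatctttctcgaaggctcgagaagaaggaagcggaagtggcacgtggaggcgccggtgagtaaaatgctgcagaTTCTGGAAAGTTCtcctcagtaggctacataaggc
Hspe1, chr1:55087898-55088197, plus strand: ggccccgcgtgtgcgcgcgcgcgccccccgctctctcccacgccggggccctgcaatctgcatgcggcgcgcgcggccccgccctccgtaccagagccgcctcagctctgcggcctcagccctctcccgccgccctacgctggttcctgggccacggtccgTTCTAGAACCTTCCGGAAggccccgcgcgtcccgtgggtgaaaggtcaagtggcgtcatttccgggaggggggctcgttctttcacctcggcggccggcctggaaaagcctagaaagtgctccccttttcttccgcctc
Hspb8, chr5:116422815-116423114, minus strand: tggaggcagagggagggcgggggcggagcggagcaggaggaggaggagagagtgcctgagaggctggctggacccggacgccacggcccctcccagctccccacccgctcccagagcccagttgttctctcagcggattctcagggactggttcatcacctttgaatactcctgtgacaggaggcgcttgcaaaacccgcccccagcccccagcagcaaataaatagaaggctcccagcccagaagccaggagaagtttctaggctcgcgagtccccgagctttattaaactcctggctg

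In *Chordc1* the element spans bases 247 to 269 of the window, with 3 overlapping matches, and in *Hsph1* bases 266 to 278. In *Hspe1* it spans bases 162 to 179, on the stretch that also lies upstream of *Hspd1*. A match describes the letters of a window and was not tested as a binding site.

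Most of these genes differed little between genotypes. Across the 71 tested members, the median log2 fold change of GRdim/dim against GR+/+ was 0.03, beside 0.01 over all 16568 genes tested. In 51 members the log2 fold change was smaller than 0.25 in size, and in 7 it reached 0.5. With edgeR's quasi-likelihood test and Benjamini-Hochberg adjustment over all genes, 0 of the 71 members were called (adjusted *p* below 0.05, with log2 fold changes larger than 0.5 in size), where 0.169% of all genes tested were called, 0.0724% with higher and 0.0966% with lower levels in GRdim/dim. At an unadjusted *p* under 0.05 there were 3 members (4.23%), *Cryab* and *Hspb8* with higher and *Hspb7* with lower levels in GRdim/dim lungs, beside 9.6% of all genes (4.91% higher and 4.68% lower). DESeq2 called 1 member, *Cryab*, beside 1.7% of its genes. These counts of members are small, and their shares were not tested against those of all genes.

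The 95% interval of the fold change lay within 2-fold in either direction for 58 of the 71 members (81.7%), beside 64.6% of all genes tested. For these 58 genes, a change of 2-fold or more lies outside the interval. For the other 13, among them *Hspa1a*, *Hspa1b*, *Hspe1*, *Hsp90aa1* and *Hspb7*, the interval reaches 2-fold. For one gene alone, 0.1 is the smallest *p*-value that an exact permutation test over 3 and 3 lungs allows.

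**Figure D1:**
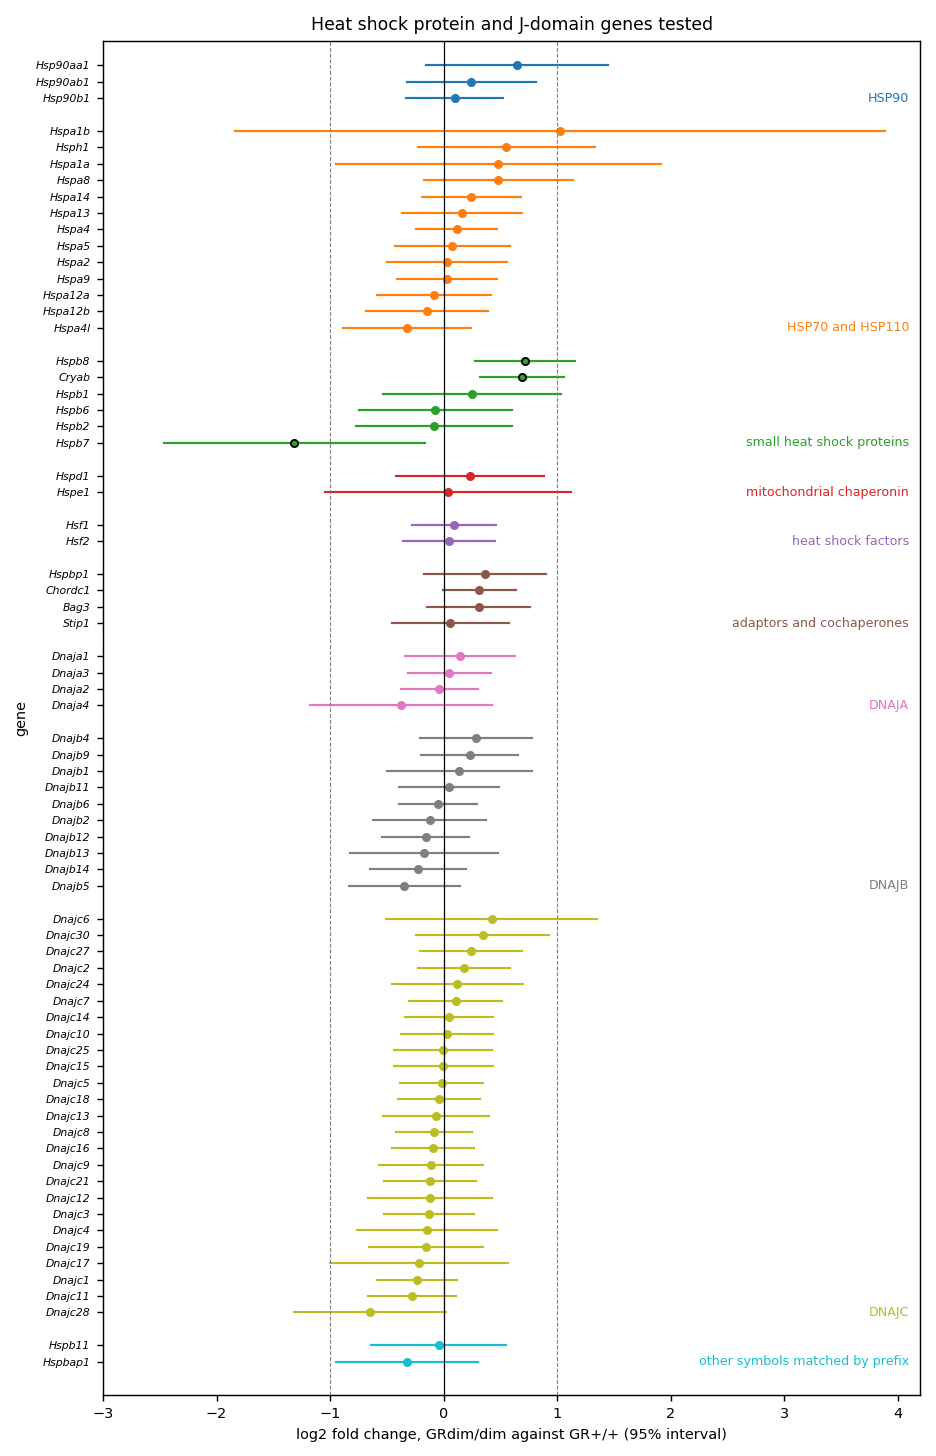
Log2 fold change of each of the 71 tested members (x axis, GRdim/dim against GR+/+, n = 3 each), by role group (y axis). Points are edgeR estimates, bars are 95% intervals, dashed lines mark 2-fold, and black-edged points have an unadjusted p under 0.05. Most intervals cross 0, and the widest belongs to *Hspa1b*.

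Levels of different genes are compared as library-scaled counts (CPM) divided by the exonic length in kilobases. On this scale, averaged over the 6 libraries, *Hspb1* was the most abundant member with 951 CPM per kilobase. It was followed by *Hsp90ab1* with 689.9, *Hspa8* with 339, *Hsp90aa1* with 263 and *Hspa5* with 212 CPM per kilobase. The tested J-domain genes were lower, from 0.578 CPM per kilobase for *Dnajc6* to 61.8 for *Dnajb9*. Members together took 0.964% to 1.29% of all counts in GR+/+ libraries and 1.09% to 1.45% in GRdim/dim libraries, ranges that overlap. Total counts per library were 15687734 to 32082940.

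**Figure D2:**
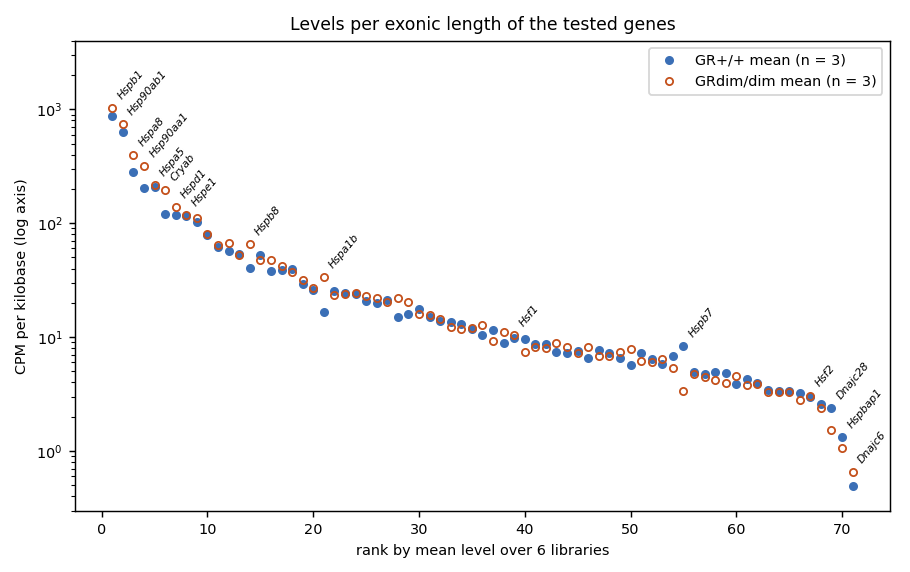
Mean CPM per kilobase of exonic length (y axis, log scale) of the 71 tested members, ranked by their mean over 6 libraries (x axis). Filled points are GR+/+ and open points GRdim/dim means (n = 3 each). The 2 means of a gene lie close together along most of the range, and *Hspb7* is the member whose GRdim/dim mean is farthest below its GR+/+ mean.

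Among the small heat shock proteins, 6 of 8 members were tested, and all 3 members with an unadjusted *p* under 0.05 came from this group. *Cryab* (ENSMUSG00000032060, chr9:50751325-50756636, plus strand) encodes αB-crystallin, which is abundant in lens and striated muscle and also present in lung. Its level was 160.3, 195 and 182 CPM in GR+/+ replicates 1, 2 and 3 and 266, 292 and 310.2 CPM in GRdim/dim replicates 1, 2 and 3. All GRdim/dim lungs lay above all GR+/+ lungs, and the spread within each genotype was small (179 ± 17.7 against 289 ± 22.3 CPM, mean ± SD, n = 3 each). The log2 fold change was 0.69 ± 0.17 (SE), a 1.61-fold difference with a 95% interval from 1.25-fold to 2.09-fold. The adjusted *p*-value was 0.202 with edgeR's quasi-likelihood test and 0.0285 with DESeq2, so the call depends on the tool.

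*Hspb8* (ENSMUSG00000041548, chr5:116408491-116422864, minus strand) encodes a small heat shock protein that works with BAG3 in clearing misfolded proteins by autophagy. Its level was 76.8, 73.3 and 85.5 CPM in GR+/+ and 103, 168 and 117 CPM in GRdim/dim replicates 1, 2 and 3. The genotypes did not overlap, and GRdim/dim replicate 2 was the highest. The log2 fold change was 0.72 ± 0.20 (SE), or 1.64-fold, with an edgeR adjusted *p*-value of 0.278 and a DESeq2 one of 0.0899.

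*Hspb7* (ENSMUSG00000006221, chr4:141420779-141425311, plus strand), a small heat shock protein of heart and skeletal muscle, had the largest negative value. Its level was 27.3, 33.2 and 9.5 CPM in GR+/+ and 5.88, 5.98 and 16.3 CPM in GRdim/dim replicates 1, 2 and 3. GR+/+ replicate 3 lay below GRdim/dim replicate 3, so the genotypes overlapped. The log2 fold change was -1.31 ± 0.51 (SE), with an edgeR adjusted *p*-value of 0.456 and a DESeq2 one of 0.0927.

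*Hspb1*, which encodes HSP27 (HSP25 in mice), stood at 774, 686 and 1231 CPM in GR+/+ and 631, 889 and 1674 CPM in GRdim/dim replicates 1, 2 and 3. Its log2 fold change of 0.25 ± 0.35 (SE) turned to -0.24 without GRdim/dim replicate 3. *Hspb2* and *Hspb6*, both mainly muscle genes, had log2 fold changes of -0.08 and -0.07. *Cryab* and *Hspb2* lie head to head and share 252 exonic bases on opposite strands, 17% of the exons of *Cryab*. Whether strand was used in counting is not given in the sources used here, so reads in this stretch cannot be assigned. *Hspb2* itself was at 2.37 to 2.95 CPM in all 6 libraries, far below *Cryab*.

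Because *Cryab* and *Hspb7* are muscle genes and lung tissue can hold pulmonary vein cardiomyocytes, muscle markers were read beside them. The summed level of 10 cardiomyocyte markers, all detected, was 581, 1042 and 178 CPM in GR+/+ and 697, 460.3 and 931 CPM in GRdim/dim replicates 1, 2 and 3. This sum overlapped between genotypes, and *Myh6* alone held 55.5 to 478 CPM of it. Of the 9 tested markers, 7 had log2 fold changes above 0 and 2 below. Their median was 0.36, with 0 at an edgeR unadjusted *p* under 0.05. *Cryab* was lowest in GR+/+ replicate 1 and highest in GRdim/dim replicate 3. *Hspb7* was low in GR+/+ replicate 3, where the cardiomyocyte sum was lowest, and in GRdim/dim replicates 1 and 2, where that sum was higher. The part of muscle cells in the values of *Cryab* and *Hspb7* was not tested. Summed smooth muscle markers (6 genes) were at 272 to 709.6 CPM in GR+/+ and 521 to 723 CPM in GRdim/dim libraries, and 8 skeletal muscle markers summed to at most 25.8 CPM. Leukocyte markers leaned higher in GRdim/dim. Their 6 genes summed to 351, 306 and 227 CPM in GR+/+ and 971, 379 and 444 CPM in GRdim/dim replicates 1, 2 and 3. In GRdim/dim replicate 1, *S100a8* and *S100a9* alone were at 397 and 348 CPM. Of the 5 leukocyte markers tested, 4 had an edgeR unadjusted *p* under 0.05, all higher in GRdim/dim, and 2 did not overlap. The lowest edgeR adjusted *p* among them was 0.332, and 0 were called by edgeR or DESeq2. The part of leukocytes in the differences of *Cryab* and *Hspb8* was not tested. In bulk tissue, fewer cells of a type and less RNA per cell cannot be told apart. The 6 markers of lung epithelium and endothelium summed to between 31090 and 50508 CPM over the 6 libraries, most of it from *Scgb1a1* and *Sftpc*. The endothelial markers moved apart. *Cldn5* was higher without overlap (410.1 ± 36.7 against 784 ± 302 CPM, SD, n = 3 each, with an adjusted *p* of 0.288 by edgeR and 0.0273 by DESeq2), while *Pecam1* had a log2 fold change of -0.44 ± 0.21 (SE) and overlapped.

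**Figure D3:**
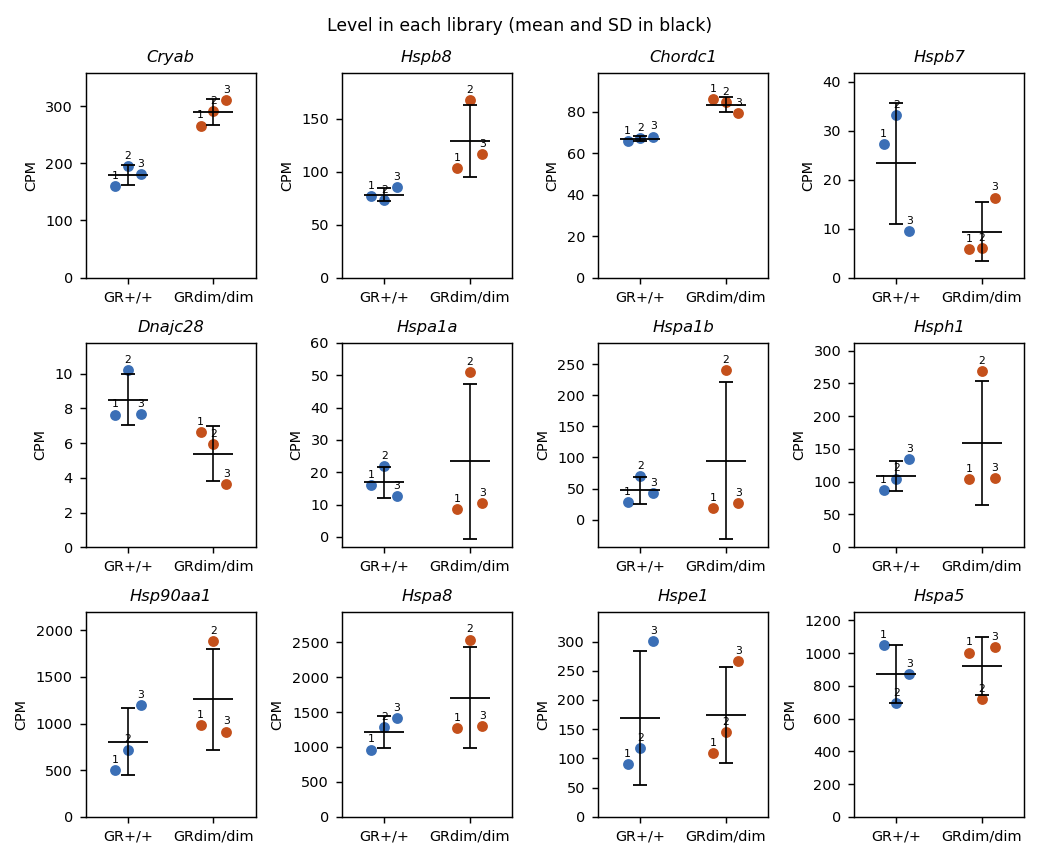
CPM (y axis) of 12 members in each library, with the replicate number beside each point, blue for GR+/+ and orange for GRdim/dim (n = 3 each). Black lines give mean and SD. *Cryab*, *Hspb8* and *Chordc1* lie higher and *Dnajc28* lower in GRdim/dim without overlap, while for *Hspa1a*, *Hspa1b* and *Hsph1* GRdim/dim replicate 2 stands apart from the other 5 lungs.

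The cytosolic HSP70 and HSP110 genes were marked by differences between single lungs. *Hspa1a* and *Hspa1b* encode the strictly stress-inducible HSP70. *Hspa1b* (ENSMUSG00000090877, chr17:34956436-34959238, minus strand) had 28.4, 70.1 and 42.3 CPM in GR+/+ and 18.2, 240.3 and 26.7 CPM in GRdim/dim replicates 1, 2 and 3. *Hspa1a* had 16.1, 21.8 and 12.5 CPM in GR+/+ and 8.68, 51 and 10.4 CPM in GRdim/dim replicates 1, 2 and 3. For both genes GRdim/dim replicate 2 was far above every other lung, and the other GRdim/dim lungs were below all GR+/+ lungs.

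The log2 fold change of *Hspa1b* was 1.02 ± 1.11 (SE) and that of *Hspa1a* 0.48 ± 0.62 (SE), neither apart from 0. Without GRdim/dim replicate 2 they were -1.06 and -0.82, with edgeR unadjusted *p*-values of 0.018 and 0.0242 and adjusted ones of 0.461 and 0.49. The direction therefore rested on 1 lung. That lung was singled out because it stood apart, so these *p*-values are no test of lower levels in GRdim/dim. The share of all genes under 0.05 without this lung is not given here. Both genes share most of their sequence, since 68% of the 31-base windows of *Hspa1b* also occur in another gene's transcripts, so the split of reads between them is uncertain. Their summed level was 44.6, 92.0 and 54.8 CPM in GR+/+ and 26.9, 291 and 37.1 CPM in GRdim/dim replicates 1, 2 and 3, the same pattern.

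*Hsph1*, which encodes the HSP110 that serves HSP70 as nucleotide exchange factor, behaved alike, at 87.2, 105 and 134 CPM in GR+/+ and 104, 268 and 105 CPM in GRdim/dim replicates 1, 2 and 3. Its log2 fold change went from 0.55 ± 0.35 (SE) to -0.052 without GRdim/dim replicate 2. *Hspa8*, the constitutive HSC70, had 963, 1282 and 1409.7 CPM in GR+/+ and 1271, 2537 and 1298 CPM in GRdim/dim replicates 1, 2 and 3. Its log2 fold change of 0.48 ± 0.30 (SE, edgeR adjusted *p* = 0.672) shrank to 0.08 without GRdim/dim replicate 2. Of its 31-base windows, 43.5% also occur in transcripts of other genes, among them pseudogenes, and the share was 51.4% for *Hsp90aa1*, 52.3% for *Hspb1* and 50.1% for *Hspd1*. The levels of these genes are uncertain to the extent that such reads were counted elsewhere or not at all.

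The remaining HSP70 relatives were steadier. *Hspa4* and *Hspa4l*, both HSP110-type exchange factors, had log2 fold changes of 0.11 and -0.32. *Hspa14*, a partner of the ribosome-bound chaperone complex, had 0.25, and *Hspa2*, best known from male germ cells, had 0.03. *Hspa12a* and *Hspa12b*, distant relatives with *Hspa12b* found mainly in endothelium, had -0.09 and -0.15. None of these 6 had an edgeR unadjusted *p* under 0.05, and *Hspa4* was the tightest of the family, with its highest library only 1.23 times its lowest.

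All 3 HSP90 genes had log2 fold changes above 0, and none passed the test. *Hsp90aa1* (ENSMUSG00000021270, chr12:110690605-110702728, minus strand), the inducible cytosolic form, had 499.7, 721 and 1199 CPM in GR+/+ and 981, 1886 and 913 CPM in GRdim/dim replicates 1, 2 and 3. The genotypes overlapped, and the log2 fold change was 0.64 ± 0.36 (SE, edgeR adjusted *p* = 0.628), or 0.23 without GRdim/dim replicate 2, 0.39 without GR+/+ replicate 1 and 1.05 without GR+/+ replicate 3. *Hsp90ab1*, the constitutive form, had 1895 ± 511 CPM in GR+/+ and 2243 ± 455 CPM in GRdim/dim lungs (SD, n = 3 each), a log2 fold change of 0.24 ± 0.26 (SE) that moved between 0.085 and 0.47 without GR+/+ replicate 1 or 3. *Hsp90b1*, the form of the endoplasmic reticulum, had 0.10 ± 0.19 (SE).

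The genes around the cycle of GR and HSP90 were read from a list of 10 genes that are no members, all tested. At an unadjusted *p* under 0.05, 1 was higher and 1 lower in GRdim/dim, beside 4.91% and 4.68% of all genes tested. *Fkbp5*, an immunophilin of the complex and a textbook GR target, had 152, 79.4 and 97.6 CPM in GR+/+ and 48.6, 37.4 and 52.2 CPM in GRdim/dim replicates 1, 2 and 3, without overlap. On the log2 scale the difference was -1.25 ± 0.25 (SE), with an adjusted *p*-value of 0.103 by edgeR's quasi-likelihood test and 0.000504 by DESeq2. *Stub1*, which encodes the ubiquitin ligase CHIP that binds HSP70 and HSP90, had a log2 fold change of 0.52 ± 0.23 (SE, edgeR adjusted *p* = 0.518). *Fkbp4*, the immunophilin that replaces FKBP5 upon hormone binding, had 0.02 ± 0.27 (SE), and *Stip1*, the adaptor between HSP70 and HSP90, had 0.06 ± 0.23 (SE).

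Among the adaptors, *Chordc1* (ENSMUSG00000001774, chr9:18292125-18317442, plus strand), whose product is an HSP90 cochaperone and whose promoter is printed above, varied least, its highest library being 1.31 times its lowest. Its level was 65.8, 67.5 and 68.0 CPM in GR+/+ and 86.2, 84.8 and 79.6 CPM in GRdim/dim replicates 1, 2 and 3. The genotypes did not overlap, at 67.1 ± 1.17 against 83.5 ± 3.49 CPM (SD, n = 3 each), but the log2 fold change of 0.32 ± 0.15 (SE) did not pass the test (edgeR adjusted *p* = 0.537). Over all settings its log2 fold change stayed between 0.30 and 0.35. *Chordc1*, *Cryab* and *Hspb8* were the 3 members with all GRdim/dim lungs above all GR+/+ lungs, and *Dnajc28* was the 1 member with all below. These 4 make up 5.63% of the tested members, beside 14.8% of all genes tested without overlap, 7.77% higher and 7.05% lower in GRdim/dim.

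*Bag3*, the nucleotide exchange factor that pairs with HSPB8, had 110.3, 109 and 73.7 CPM in GR+/+ and 99.6, 123 and 140.3 CPM in GRdim/dim replicates 1, 2 and 3. The log2 fold change was 0.31 ± 0.20 (SE, edgeR adjusted *p* = 0.703), or 0.14 without GR+/+ replicate 3. *Hspbp1*, another exchange factor of HSP70, had 0.37 ± 0.24 (SE), with 0.07 without GRdim/dim replicate 3 and 0.57 without GRdim/dim replicate 2. The transcription factors themselves were even. *Hsf1* had 69.1 ± 7.45 CPM in GR+/+ and 73.5 ± 8.29 CPM in GRdim/dim, and *Hsf2* 28.4 ± 3.44 and 29.4 ± 2.13 CPM (SD, n = 3 each), with log2 fold changes of 0.09 ± 0.17 and 0.05 ± 0.18 (SE). RNA of *Hsf1* does not show the activity of the protein, which is set after translation.

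A list of 17 members known as heat-inducible was then followed library by library. All 17 log2 fold changes were above 0, with a median of 0.31. Values above 0 were held by 53.5% of the tested members, the 17 included, and by 50.9% of all genes tested. Without the 17, the share among members is lower. Of the 17, 2 had an unadjusted *p* under 0.05 and 3 did not overlap, beside 9.6% and 14.8% of all genes tested. All 17 values come from the same 6 lungs, so they are not separate observations of the genotype. The list was also chosen with earlier results of these data known. It holds *Cryab*, *Hspb8* and *Chordc1*, the 3 members that lay higher without overlap. The count of values above 0 is thus a description and no test.

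GRdim/dim replicate 2 held the highest level of 10 of the 17 genes, with a median deviation of 0.45 log2 units from the mean of the 6 libraries. GR+/+ replicate 1 held the lowest level of 8 genes (median deviation -0.37) and GRdim/dim replicate 1 that of 7 (-0.26). GRdim/dim replicates 1 and 2 thus lay near opposite ends of the range. Without GRdim/dim replicate 2 the median log2 fold change of the list fell to 0.078, while it was 0.54 without GR+/+ replicate 3 and 0.47 without GRdim/dim replicate 1. The sexes were unequally spread over the genotypes, and with a covariate for sex-linked expression the median was 0.42. With this covariate the log2 fold changes were 0.997 for *Hsp90aa1*, 0.76 for *Hsph1*, 0.70 for *Hspa8* and 0.51 for *Hspd1*. The edgeR unadjusted *p*-values were then 0.00337, 0.00716, 0.0125 and 0.0987, and the lowest adjusted one of these was 0.3. Values of the other listed genes with this covariate are not given here, nor is the share of all genes under 0.05. Summed immediate-early genes (6 genes such as *Fos* and *Jun*, which respond to tissue handling) were at 1671, 1087 and 1205 CPM in GR+/+ and 1228, 1664 and 1306 CPM in GRdim/dim replicates 1, 2 and 3. The sum was high in GRdim/dim replicate 2 and in GR+/+ replicate 1, but through different genes. *Fos* and *Ier2* were highest in GRdim/dim replicate 2, at 328 and 241 CPM. *Jun* and *Atf3* were highest in GR+/+ replicate 1, at 652 and 50.8 CPM. *Junb* was highest in GRdim/dim replicate 3 and *Egr1* in GRdim/dim replicate 1. Between genotypes, *Jun* was lower without overlap (log2 fold change -0.90 ± 0.24, SE, adjusted *p* 0.251 by edgeR and 0.0221 by DESeq2). *Ier2* was higher without overlap (0.69 ± 0.19, SE, edgeR adjusted *p* = 0.286). *Fos* and *Junb* had 0.79 ± 0.36 and 0.61 ± 0.29 (SE), with overlap. Their part was not tested.

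**Figure D4:**
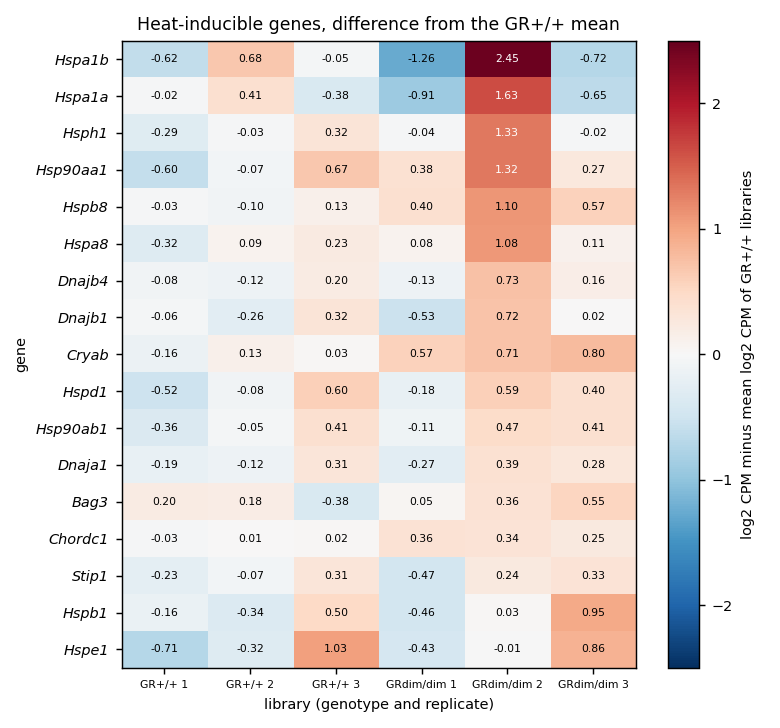
Log2 CPM of 17 heat-inducible members (rows) in the 6 libraries (columns), each as the difference from the mean of the GR+/+ libraries, in colour and as a number. GRdim/dim replicate 2 is above the GR+/+ mean for 16 of 17 genes, up to 2.45 for *Hspa1b*, whereas GRdim/dim replicate 1 is below it for 11.

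By their median, these genes also varied more within a genotype than the others did. The pooled SD of log2 CPM within genotypes had a median of 0.449 over the 17 heat-inducible members, 0.229 over the other 54 tested members and 0.303 over all genes tested. *Hspa1b* had the widest spread of all members, with a pooled SD of 1.49, followed by *Hspa1a* with 1.03 and *Hspb7* with 0.90. Not every heat-inducible gene varied widely. *Chordc1* had the narrowest spread of the tested members, 0.047, and *Cryab* had 0.13.

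The mitochondrial chaperonin followed another order of libraries. *Hspd1* (HSP60) and *Hspe1* (HSP10) are transcribed from the shared promoter printed above for *Hspe1*. *Hspe1* had 89.9, 117 and 300.2 CPM in GR+/+ and 109, 145 and 267 CPM in GRdim/dim replicates 1, 2 and 3. *Hspd1* had 207, 280.2 and 449 CPM in GR+/+ and 262, 446 and 392 CPM in GRdim/dim replicates 1, 2 and 3. Both were lowest in replicate 1 of each genotype and highest in GR+/+ replicate 3. Their log2 fold changes were 0.04 ± 0.47 and 0.23 ± 0.29 (SE), and 3 of 6 left-out libraries turned that of *Hspe1* below 0. That of *Hspd1* was 0.012 without GR+/+ replicate 1 and 0.59 without GR+/+ replicate 3. *Hspa9*, the mitochondrial HSP70, had 308 ± 67.9 CPM in GR+/+ and 315 ± 27.6 CPM in GRdim/dim (SD, n = 3 each). Over 9 mitochondrial members the median log2 fold change was 0.03.

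Chaperones of the endoplasmic reticulum differed little. Over 9 members the log2 fold changes lay between -0.24 and 0.23, with a median of 0.05 and 0 genes at an edgeR unadjusted *p* under 0.05. *Hspa5*, which encodes BiP, the HSP70 of this compartment, had 1049, 695 and 872 CPM in GR+/+ and 1003, 719 and 1039 CPM in GRdim/dim replicates 1, 2 and 3. Both genotypes covered nearly the same range, and the log2 fold change was 0.08 ± 0.23 (SE). GRdim/dim replicate 2, the highest for the heat-inducible genes, was the lowest GRdim/dim lung for *Hspa5*. The J-domain partners of BiP were *Dnajb9* with 0.23, *Dnajb11* with 0.05, *Dnajc10* with 0.03, *Dnajc3* with -0.12 and *Dnajc1* with -0.24.

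Of 14 further genes of the unfolded protein response, all tested, 1 had an unadjusted *p* under 0.05, beside 9.6% of all genes. This was *Xbp1*, a transcription factor of that response, at 354, 285 and 239 CPM in GR+/+ and 561, 304 and 585 CPM in GRdim/dim replicates 1, 2 and 3. Its log2 fold change was 0.73 ± 0.27 (SE, edgeR adjusted *p* = 0.431), and the genotypes overlapped. *Xbp1* is also highly expressed in plasma cells. *Hyou1*, the HSP70 relative of the compartment, had -0.06 ± 0.19 (SE).

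J-domain proteins are sorted by structure. Class A resembles bacterial DnaJ, class B lacks its zinc finger, and class C shares only the J domain. Of the 4 class A genes, 2 had values above 0 and 2 below, with a median of 0.01. *Dnaja1*, the main cytosolic partner of HSP70, had 171 ± 33.3 CPM in GR+/+ and 189 ± 43.1 CPM in GRdim/dim. *Dnaja2* had the smallest ratio of highest to lowest library among the tested members, 1.14, at 152, 164 and 166 CPM in GR+/+ and 163, 146 and 161 CPM in GRdim/dim replicates 1, 2 and 3. *Dnaja4* had the widest range, from 14.4 to 48.5 CPM, and a log2 fold change of -0.37 ± 0.36 (SE). It shares 44.1% of its exonic bases with *Wdr61* on the other strand, so its reads are uncertain.

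Of the 13 class B genes, 10 were tested, with 4 log2 fold changes above and 6 below 0 and a median of -0.09. *Dnajb1* (HSP40), the stress-inducible partner of HSP70, had 63.6, 55.0 and 82.5 CPM in GR+/+ and 45.8, 109 and 67.0 CPM in GRdim/dim replicates 1, 2 and 3. The fold change was 0.14 ± 0.29 (SE) on the log2 scale, or -0.25 without GRdim/dim replicate 2. *Dnajb4*, its near relative, had 0.29 ± 0.22 (SE), and *Dnajb5* had the lowest value of the class, -0.35 ± 0.22 (SE). *Dnajb14*, of the endoplasmic reticulum membrane, had -0.23 ± 0.19 (SE). *Dnajb6*, which keeps aggregation-prone proteins soluble, was almost level at 128 ± 9.75 and 124 ± 8.92 CPM. *Dnajb13*, a gene of cilia and sperm tails, had 20.2, 16.8 and 25.5 CPM in GR+/+ and 11.8, 26.0 and 17.8 CPM in GRdim/dim replicates 1, 2 and 3. The 6 markers of ciliated cells all had log2 fold changes below 0, with a median of -0.47, and 0 were without overlap. Of the 6, only *Foxj1* had an edgeR unadjusted *p* under 0.05 (adjusted *p* = 0.483), where 4.68% of all genes were lower. Their sums were 229, 254 and 458 CPM in GR+/+ and 150, 233 and 225 CPM in GRdim/dim replicates 1, 2 and 3. These sums overlapped between genotypes, and the part of ciliated cells in *Dnajb13* was not tested.

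Class C was the largest group, with 28 genes, 25 of them tested. There were 8 log2 fold changes above and 17 below 0, with a median of -0.06 and values from -0.65 to 0.42. In 23 of the 25 the 95% interval lay within 2-fold. *Dnajc28* (chr16:91614254-91619026, minus strand) had 7.65, 10.2 and 7.66 CPM in GR+/+ and 6.63, 5.94 and 3.62 CPM in GRdim/dim replicates 1, 2 and 3. All GRdim/dim lungs lay below all GR+/+ lungs, but the level was low and the log2 fold change of -0.65 ± 0.30 (SE) did not pass the test (edgeR adjusted *p* = 0.539). *Dnajc11*, of the mitochondrial inner membrane organizing system, had -0.28 ± 0.17 (SE). *Dnajc6*, auxilin, which with HSC70 uncoats clathrin vesicles, had the highest value of the class, 0.42 ± 0.42 (SE), at 1.68 to 5.28 CPM. *Dnajc5*, the cysteine string protein of secretory vesicles, had -0.02 ± 0.16 (SE), and *Dnajc7*, another cochaperone of the HSP70 and HSP90 cycle, had 0.11 ± 0.18 (SE).

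The 9 members not tested had few or no reads. *Dnajc5g* had 0 counts in all 6 libraries, which allows up to 3 counts in each. *Hspb3* had 5 counts in all, *Dnajb8* 7, *Dnajc5b* 15, *Dnajb7* 21, *Dnajb3* 45, *Hspa1l* 52, *Hspb9* 56 and *Dnajc22* 61. *Hspa1l*, *Dnajb3*, *Dnajb8* and *Hspb9* are known as testis genes. *Hspb11* and *Hspbap1* matched by symbol only, the first as a part of the intraflagellar transport machinery and the second as a protein that binds HSPB1. Their log2 fold changes were -0.04 and -0.33.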

How the data were processed

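Lung RNA of 3 GR+/+ and 3 GRdim/dim mice was captured by poly(A) and sequenced. The authors deposited one table of unnormalized whole-number read counts, with the length of each gene in bases. Their processing notes name mm10 and DESeq2. How reads were aligned and counted, whether by strand, and on which annotation release are not given in the sources used here. There were 0 other columns of sample values. Genotype and replicate number come from the sample titles. Coordinates are those of the deposited annotation columns, and all 80 members were found in GENCODE M21 of GRCm38, 76 of them with the same start, end and strand.

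Counts were analysed in R 4.3.3 with edgeR 4.0.16 (TMM, filterByExpr, robust glmQLFit, glmQLFTest) over 16568 genes, with Benjamini-Hochberg adjustment over all of them. CPM are TMM-scaled, and log2 CPM used a prior count of 2. DESeq2 1.42.0 was an alternative. Standard errors and 95% intervals come from the edgeR fit. *P*-values rest on the spread between 3 mice of a genotype, which edgeR and DESeq2 moderate by values from all genes. The SE and *p*-value of a gene therefore do not reflect its own lungs alone. For *Chordc1* the pooled SD of log2 CPM was 0.047 and the SE 0.15. Libraries held 15687734 to 32082940 counts, and replicates differed by more than sampling noise (chi-square per degree of freedom 19.2 to 62.9). The procedure was tested on simulated data.

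The members, the gene lists and the rule for named genes were chosen with earlier results of these data known. Named are members called by edgeR or DESeq2, the 8 tested members with the smallest unadjusted *p* in each direction, 20 textbook members, the 5 most abundant, those not tested, and listed companion genes with an unadjusted *p* under 0.05 or called by either tool. The list of further heat shock response genes is not reported here. Further J-domain and HSP70 genes, *Fkbp4*, *Hyou1* and some markers were named after their values were seen, to complete their groups. Shared sequence is the percentage of a gene's 31-base transcript windows found in other genes' transcripts. Proteins were not analysed here. Alternatives were RLE scaling, no filter, at least 10 counts in every library, DESeq2, a replicate block, a covariate for sex-linked expression, no fold threshold, and each library left out.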

Additional observations from a re-analysis of the deposited data

How the results depend on the processing

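No member was called with edgeR's quasi-likelihood test under RLE scaling, the filter of at least 10 counts, the sex covariate, without the fold threshold or without any 1 library (0 to 0). DESeq2 called 1, and without a filter on low counts edgeR called 3, *Cryab*, *Hspb8* and *Hspb7*, with *Hspb7* at an adjusted *p* of 0.0046. Over all genes, 28 calls became 274 with DESeq2, 522 without a filter, and 4 to 22 without 1 library, with 4 without GR+/+ replicate 2. Members with an unadjusted *p* under 0.05 numbered 3, against 5 with DESeq2, 7 without a filter, 7 with the sex covariate and 2 to 6 without 1 library. Members without overlap rose from 4 to between 6 and 15 when 1 library was left out, because fewer lungs have to be separated. The shares of all genes at these other settings are not given here. Neither count can therefore be read as a change particular to the members. The median log2 fold change of the members was 0.03, and -0.026 (without GRdim/dim replicate 2) to 0.055 without 1 library.

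Of 408 single-gene values over 34 genes, 380 kept their direction and side of the threshold, 8 passed it newly and 20 turned in sign, 19 of these when 1 library was left out. *Hspa5* also turned to -0.10 with the sex covariate. Ranges over left-out libraries that crossed 0 were -0.055 to 0.24 for *Hspa5*, -0.086 to 0.22 for *Hspa9*, -0.41 to 0.75 for *Hspe1*, -0.028 to 0.14 for *Hsf2*, -0.086 to 0.28 for *Stip1*, -0.0038 to 0.25 for *Hsp90b1*, -0.49 to 0.025 for *Hspa4l*, -0.24 to 0.54 for *Hspb1* and -0.25 to 0.39 for *Dnajb1*. They were -0.052 to 0.79 for *Hsph1*, -0.82 to 0.88 for *Hspa1a* and -1.06 to 1.51 for *Hspa1b*, each lowest without GRdim/dim replicate 2. The causes were not tested.

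Replicate numbers are shared between genotypes, but deviations of same-numbered libraries correlated at 0.22, 0.04 and -0.05, and not every library correlated best with its own number. The numbers were therefore not taken as pairs. With the replicate number as a block, 34 genes and 0 members were called, and 3 members had an unadjusted *p* under 0.05. Over all genes, replicates differed by more than counting error, but the part of counting error was not worked out for single members.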

Other observations

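Processed pseudogenes whose symbols match the same prefixes numbered 14 and are no members. Of these, 7 had 0 counts in all 6 libraries, and *Hspd1-ps3* had the most, 133 counts in all, with 9 to 47 per library. It was the only one of the 14 with enough reads to be tested.

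Several members lie next to each other. *Hspa1b* and *Hspa1a* are 9951 bases apart on chromosome 17, and *Hspa1l* follows 546 bases beyond *Hspa1a* on the other strand. *Hspa1l* had 52 counts over all libraries, where its neighbours had 499 to 7012 counts in a single library when summed. *Hspd1* and *Hspe1* overlap by 112 bases on opposite strands, and *Dnajc4* and *Stip1* lie 28192 bases apart on chromosome 19, with log2 fold changes of -0.14 and 0.06.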
